A study of Mus musculus with 8 samples.

Results

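The 10 genes described here are the Notch receptors Notch1, Notch2 and Notch3, the ligands Dll1, Dll4, Jag1 and Jag2, the DNA-binding factor Rbpj and the target genes Hes1 and Hes5. Their probes were taken by the gene name that the array files give. They are 10 of 19528 genes tested and are carried by 14 of 39429 probes on the array, with 2 probes each for Notch1, Notch2, Dll1 and Rbpj and 1 for each of the other 6 genes. All 14 probes were well above background, by the scanner software's own mark, on all 8 arrays.

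Lower crypts of the jejunum from 8 mice, each on an array of its own, were read on single-colour Agilent microarrays. These crypt bottoms, where stem cells lie between Paneth cells, were cut by laser capture from methacarn-fixed, paraffin-embedded sections. All mice were Lgr5EGFP-IRES-CreERT2/+, which places a green fluorescent reporter and an inducible Cre recombinase in 1 of the 2 alleles of the stem cell gene Lgr5. They were 4 to 6 weeks old, and all 8 received 80 mg/kg etoposide into the tail vein, a topoisomerase II poison that breaks DNA. Before the injection 4 mice had been fasted for 24 h and 4 had been fed, each group labelled as 2 males and 2 females, and tissue was taken 3 h after it. All were given moistened food after the injection, so fasting cannot be told apart from food offered after a fast, and no mouse without etoposide was analysed here, so no response to the drug is measured.

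Notch receptors pass a signal between touching cells: a ligand on one cell pulls on a receptor on its neighbour, proteases release the receptor's intracellular part, and this joins RBPJ in the nucleus to switch on target genes. In the intestinal crypt NOTCH1 and NOTCH2 on stem and progenitor cells receive DLL1 and DLL4 from neighbouring secretory cells, and the repressor HES1 holds down Atoh1, the factor that commits cells to the secretory lineages. Loss of this signal in the gut turns proliferating crypt cells into secretory cells.

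Levels below are log2 processed signals minus the 75th percentile of the same array, so that 0 is the brightness below which 75% of probes lie. They compare 1 probe between arrays and never one probe with another. A gene with 2 probes is represented by its brighter one, and differences are fasted minus fed from limma with labelled sex as a second term. On fasted arrays 53.6% to 65.4% of probes, and on fed arrays 53.2% to 62.7%, were well above background. Fasted 3 was the array least like the others, with correlations across genes of 0.827 to 0.925, and was alone on its slide and on the later scan day. Fed 2 was also alone on its slide, and slides A, B and C held fasted 1 with fed 1, fasted 2 with fed 3, and fasted 4 with fed 4. Stem cell gene Olfm4, Paneth cell gene Lyz1 and goblet cell gene Muc2 were well above background on all 8 arrays, while Lgr5 itself was on 0 of 8. Fed 4 is labelled female, but its log2 signal of Xist was 4.69 and not above background, against 13.09, 13.38 and 13.69 on the other arrays labelled female, and its Y-linked Eif2s3y was well above background at 9.31. Fed 1, labelled male, had Eif2s3y at 7.29, not well above background, and its Xist was not above background either. Fed 4 is named as an array labelled female only where labelled sex is compared. It was still fitted as female in every model with a sex term, so its label also bears on the fasted minus fed differences. With no sex term 0 of 19528 genes had a limma adjusted p under 0.05 between fasted and fed. A fit with the label of fed 4 changed was not made.

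The probes of 3 members are printed here because their position decides which part of the transcript was read. They are 60-base array designs at mm9 positions given in the files, and exon annotation of mm9 was not used here. The first is the brighter Notch1 probe at chr2:26319440-26319499 on the minus strand, starting at transcript base 5898. The second is the dimmer Notch2 probe at chr3:97951233-97951292 on the plus strand, starting at base 7448. The third is the brighter Rbpj probe at chr5:54044777-54044836 on the plus strand, starting at base 1682.
Notch1 probe: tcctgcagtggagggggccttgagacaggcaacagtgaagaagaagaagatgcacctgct
Notch2 probe: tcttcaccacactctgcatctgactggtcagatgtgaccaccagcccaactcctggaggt
Rbpj probe: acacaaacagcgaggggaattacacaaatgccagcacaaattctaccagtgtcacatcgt

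The main comparison asked whether the Notch genes of the lower crypt stood at another level in fasted than in fed mice 3 h after etoposide. No member was called: 0 of 10 passed an adjusted p under 0.05 with limma and Benjamini-Hochberg adjustment over all genes, as did 0 of 19528 genes (0%). At an unadjusted p under 0.05 the count was 0 of 10 members, beside 5.95% of all genes. Fasted and fed arrays overlapped for all 10 members, whereas they did not overlap for 4.97% of genes. The fitted difference was above 0 for 4 members and below 0 for 6, and over all genes it was above 0 for 44.5%. The 95% intervals of all 10 members held 0 and together ran from -1.36 to 1.25, that is from 0.389-fold to 2.38-fold of the fed level. A 3-fold difference in either direction lay outside the interval of each of the 10 genes.

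**Figure D1:**
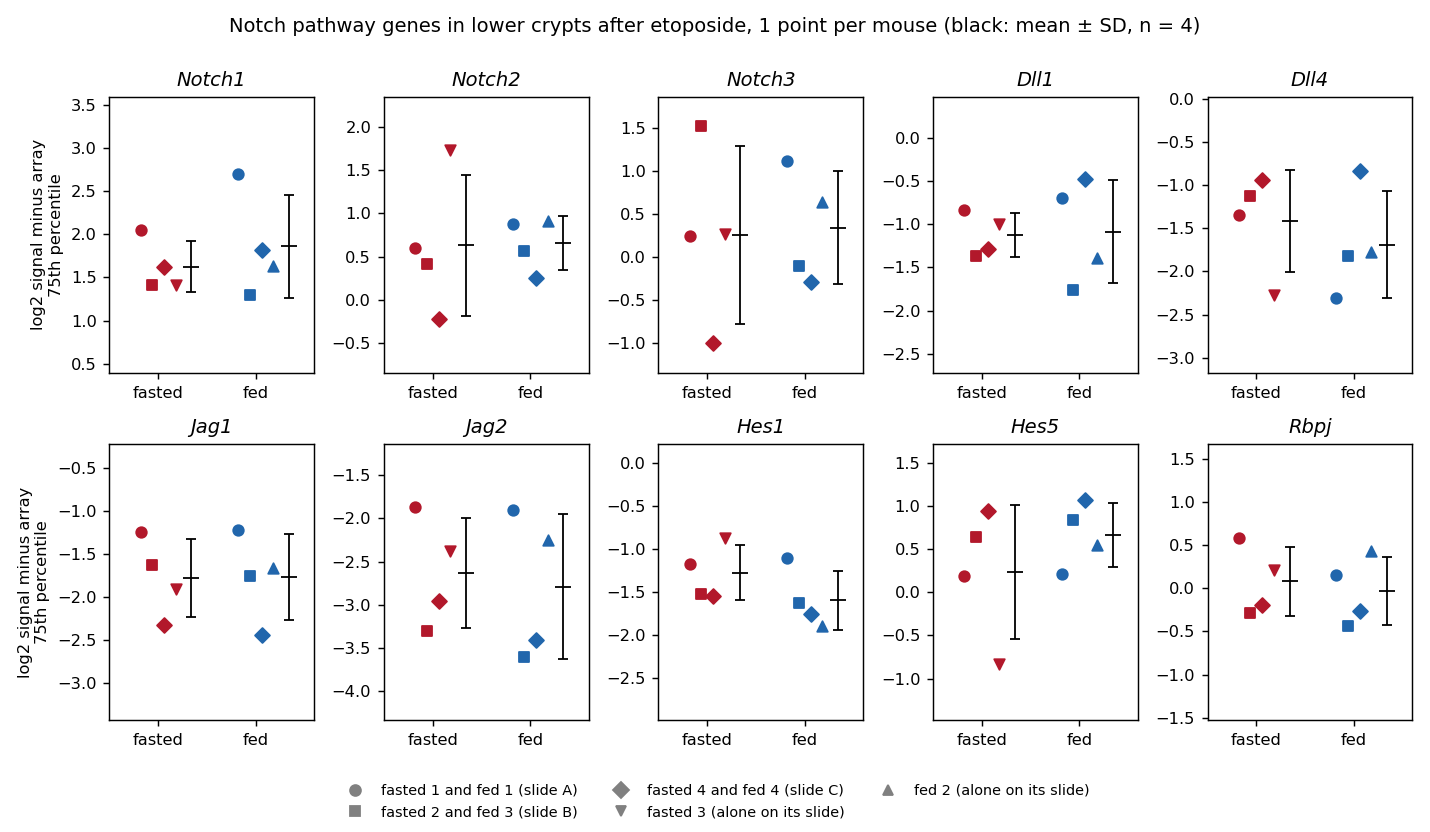
Level of each of the 10 Notch pathway genes on each array, as log2 signal minus the array's 75th percentile, with 1 point per mouse, red for fasted and blue for fed, the marker shape giving the slide, and black bars giving mean ± SD (n = 4). Fasted and fed points overlap for all 10 genes, and fasted 3 is the highest point for Notch2 at 1.73 and the lowest for Hes5 at -0.83.

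Among the receptors, Notch1 is a main receptor of crypt stem and progenitor cells. Its brighter probe stood at 2.05, 1.41, 1.42 and 1.63 on fasted arrays 1 to 4 and at 2.70, 1.63, 1.29 and 1.82 on fed arrays 1 to 4. The highest value of both groups came from slide A, and the fasted values all lay within the span of the fed ones. Group means were 1.63 ± 0.30 (SD, n = 4) fasted and 1.86 ± 0.60 (SD, n = 4) fed, a difference of -0.24 (SE 0.29, 95% interval -0.91 to 0.44, limma adjusted p = 0.841). Within slides A, B and C it was -0.65, 0.12 and -0.19. The second Notch1 probe lies at chr2:26314630-26314689, starting at base 8221, and ran from -0.99 to 0.10 fasted and from -0.81 to 0.87 fed. It too was highest on fed 1, and its difference was -0.16 (SE 0.37), so both probes of Notch1 gave a negative value smaller than its SE.

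Notch2 acts beside Notch1 in the crypt, where either can partly stand in for the other. Its brighter probe, at chr3:97953914-97953973 on the plus strand, stood at 0.60, 0.41, 1.73 and -0.23 on fasted arrays 1 to 4 and at 0.88, 0.92, 0.57 and 0.25 on fed arrays 1 to 4. Fasted 3 was far above the rest and fasted 4 was the lowest, so the fasted arrays held both ends of the range. The difference was -0.02 (SE 0.41, 95% interval -0.96 to 0.92, limma adjusted p = 0.990), and without fasted 3 it was -0.49 (unadjusted p = 0.032, adjusted p = 0.540 by limma). The dimmer probe, printed above, read -0.03, 0.14, -0.29 and 0.01 fasted and 0.00, 0.24, 0.57 and 0.46 fed. Here fasted 3 was the lowest of all 8 arrays, so the 2 Notch2 probes disagreed most on that array. This probe gave a difference of -0.36 (SE 0.22, 95% interval -0.87 to 0.15), with a limma adjusted p of 0.767 among all probes. On the 3 shared slides both probes were lower in the fasted array, by -0.28, -0.15 and -0.47 for the brighter and by -0.03, -0.43 and -0.45 for the dimmer.

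Notch3 is best known from the mural cells around blood vessels. Its probe, at chr17:32257848-32257907 on the minus strand, stood at 0.24, 1.52, 0.26 and -1.00 on fasted arrays 1 to 4 and at 1.12, 0.64, -0.10 and -0.29 on fed arrays 1 to 4. It spanned 2.52 over the 8 arrays, the widest span of the 14 probes, and the fasted arrays held both the highest and the lowest value. The difference was -0.09 (SE 0.37, 95% interval -0.94 to 0.77, limma adjusted p = 0.959), with -0.88, 1.62 and -0.71 within slides A, B and C. Markers of pericytes, smooth muscle and fibroblasts summed to 39.84 to 85.24 times the 75th percentile signal on fasted arrays. On fed arrays they summed to 30.93 to 124.06. The brightest probes weigh most in such a sum. Of 16 tested 8 were above and 8 below 0, with a median of 0.01. At an unadjusted p under 0.05 were 3, all higher in fasted arrays, beside 5.95% of all genes. Pdgfrb, 1 of these 3, differed by 1.77 (SE 0.58, unadjusted p = 0.015, adjusted p = 0.788 by limma), without overlap. It was well above background on 6 of 8 arrays, and its difference ran from 0.67 to 2.99 under other processing. Among the 8 markers below 0 were the collagens Col1a1 at -0.93 (SE 0.63), Col1a2 at -0.72 (SE 0.45) and Col3a1 at -0.81 (SE 0.52). The part of these markers in the Notch3 values was not tested, and in such tissue pieces fewer cells of a type and less RNA per cell cannot be told apart.

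Of the Delta-like ligands, Dll1 and Dll4 are the pair that crypt secretory cells present to stem cells. The brighter Dll1 probe, at chr17:15513726-15513785 on the minus strand, stood at -0.83, -1.37, -1.00 and -1.29 on fasted arrays 1 to 4 and at -0.70, -1.40, -1.76 and -0.48 on fed arrays 1 to 4. The fed arrays held both ends of the range, and the difference was -0.04 (SE 0.35, 95% interval -0.84 to 0.77, limma adjusted p = 0.981). The second Dll1 probe, at chr17:15504623-15504682, is printed in 9 to 10 usable spots per array, whose log2 SD within an array was 0.0669 to 0.378. It ran from -2.20 to -1.70 fasted and from -2.42 to -1.51 fed, a difference of 0.04 (SE 0.30). The 2 Dll1 probes thus gave values of opposite sign that were both near 0. They were designed on different transcripts: the brighter starts at base 51 of an Ensembl transcript and the second at base 3063 of a RefSeq transcript.

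Dll4 is also made by endothelial tip cells. Its probe, at chr2:119160779-119160838 on the plus strand, stood at -1.34, -1.12, -2.27 and -0.94 on fasted arrays 1 to 4 and at -2.31, -1.78, -1.82 and -0.84 on fed arrays 1 to 4. Fed 1 and fasted 3 were the lowest, and fed 4 was the highest of all. The difference was 0.27 (SE 0.43, 95% interval -0.71 to 1.25, limma adjusted p = 0.875). It was 0.64 for Dll4 without fasted 3 and 0.57 without fed 4, and 0.97, 0.70 and -0.10 within slides A, B and C. Endothelial markers summed to 8.95 to 10.69 on fasted and 9.77 to 10.66 on fed arrays, with 0 of 13 tested at an unadjusted p under 0.05. Cdh5, the endothelial cadherin, was well above background on 1 of 8 arrays and Pecam1 on 5 of 8.

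Jag1 and Jag2 are the Jagged ligands, which bind the same receptors as the Delta-like ones. The Jag1 probe, at chr2:136907433-136907492 on the minus strand, stood at -1.25, -1.63, -1.91 and -2.32 on fasted arrays 1 to 4 and at -1.22, -1.66, -1.76 and -2.43 on fed arrays 1 to 4. The 2 groups were nearly the same set of values, with the slide A pair high and the slide C pair low in both. Means were -1.78 ± 0.45 (SD, n = 4) fasted and -1.77 ± 0.50 (SD, n = 4) fed, and the difference was -0.01 (SE 0.30, 95% interval -0.69 to 0.67, limma adjusted p = 0.994). Within slides A, B and C it was -0.03, 0.13 and 0.11, all far smaller than the 1.21 that separated the highest from the lowest array.

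The Jag2 probe, at chr12:114146887-114146946 on the minus strand, stood at -1.87, -3.31, -2.38 and -2.96 on fasted arrays 1 to 4 and at -1.90, -2.24, -3.61 and -3.41 on fed arrays 1 to 4. The slide A pair was again the highest of each group, and fed 3 was the lowest of all. The difference was 0.16 (SE 0.47, 95% interval -0.93 to 1.25, limma adjusted p = 0.938), the least precise of the 10. It was positive within slides A, B and C, at 0.03, 0.30 and 0.45.

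Rbpj encodes the DNA-binding protein that the released receptor joins. Its brighter probe, printed above, stood at 0.58, -0.28, 0.21 and -0.20 on fasted arrays 1 to 4 and at 0.15, 0.43, -0.44 and -0.26 on fed arrays 1 to 4. High and low arrays were spread over both groups. The difference was 0.11 (SE 0.27, 95% interval -0.51 to 0.73, limma adjusted p = 0.924), and 0.43, 0.16 and 0.06 within slides A, B and C. The second probe, at chr5:54048503-54048562 on the plus strand and starting at base 5408, read -1.90, -2.45, -2.11 and -2.38 fasted against -2.32, -2.39, -2.71 and -3.26 fed. Fed 4 was the lowest there, and the difference was 0.46 (SE 0.33, 95% interval -0.29 to 1.21), with a limma adjusted p of 0.771 among all probes. Both Rbpj probes were higher in the fasted array on all 3 shared slides, without passing the test.

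Hes1 and Hes5 encode basic helix-loop-helix repressors and are direct targets of the RBPJ complex. The Hes1 probe, at chr16:30067820-30067879 on the plus strand, stood at -1.17, -1.52, -0.87 and -1.54 on fasted arrays 1 to 4 and at -1.10, -1.89, -1.63 and -1.75 on fed arrays 1 to 4. Fed 1 lay above 3 of the 4 fasted arrays, and the other 3 fed arrays lay below all of them. Means were -1.28 ± 0.32 (SD, n = 4) fasted and -1.59 ± 0.34 (SD, n = 4) fed. The difference was 0.32 (SE 0.30, 95% interval -0.38 to 1.01, limma adjusted p = 0.805), and it was 0.15 for Hes1 without fasted 3. Within slides A, B and C it was -0.07, 0.11 and 0.21, each smaller than the SD of either group.

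The Hes5 probe, at chr4:154336347-154336406 on the plus strand, stood at 0.19, 0.64, -0.83 and 0.93 on fasted arrays 1 to 4 and at 0.20, 0.55, 0.83 and 1.07 on fed arrays 1 to 4. Fasted 3 alone lay well below the fed arrays, and the other 3 fasted arrays spanned nearly the fed range. Means were 0.23 ± 0.77 (SD, n = 4) fasted and 0.66 ± 0.37 (SD, n = 4) fed. The difference of -0.43 was the largest of the 10 in size (SE 0.41, 95% interval -1.36 to 0.50, limma adjusted p = 0.805), and for Hes5 without fasted 3 it was 0.016. Within slides A, B and C it was -0.01, -0.19 and -0.13. The 2 targets thus had fitted differences of opposite sign, and both 95% intervals held 0.

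The Hes5 promoter is shown because Hes5 had the largest difference and because its letters show what an RBPJ target can look like. The window is the 250 bases before the gene's start in RefSeq on GRCm38.p6, chr4:154960673-154960922 on the plus strand, with each TGGGAA, read on either strand, in capitals.
Hes5 promoter: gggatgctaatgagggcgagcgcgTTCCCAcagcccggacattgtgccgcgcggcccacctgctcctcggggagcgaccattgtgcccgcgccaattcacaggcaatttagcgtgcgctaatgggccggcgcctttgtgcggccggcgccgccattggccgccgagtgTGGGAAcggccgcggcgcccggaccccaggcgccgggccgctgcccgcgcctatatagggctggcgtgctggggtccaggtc
TGGGAA is the core of the sequence that RBPJ binds, and the window holds it 226 bases before the start on the minus strand and 82 bases before it on the plus strand. Both matches extend to GTGGGAA, which contains TGGGAA. Of 32851 RefSeq windows of the same length 21.6% hold TGGGAA at least once on either strand, and 5.42% hold the longer GTGGGAA. Just 18 windows, or 0.0548%, hold GTGGGAA on both strands, as this one does. RefSeq windows were found for 9 of the 10 members, all but Hes1, and of those 9 genes Rbpj and Hes5 hold TGGGAA and Hes5 alone holds GTGGGAA. A match of letters is a description, and binding was not measured.

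Shared slides allow a second view of the same comparison, since each of slides A, B and C carried a fasted and a fed array. The within-slide difference had 1 sign on all 3 slides for 4 of 10 members, as for 40% of all genes. These 4 were Notch2 and Hes5, lower in the fasted array, and Jag2 and Rbpj, higher in it. When slide replaced sex in the model, the fitted difference of Notch2 was -0.30, that of Dll4 0.52, that of Hes1 0.09 and that of Hes5 -0.11, with limma adjusted p-values of 0.464, 0.458, 0.882 and 0.767.

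**Figure D2:**
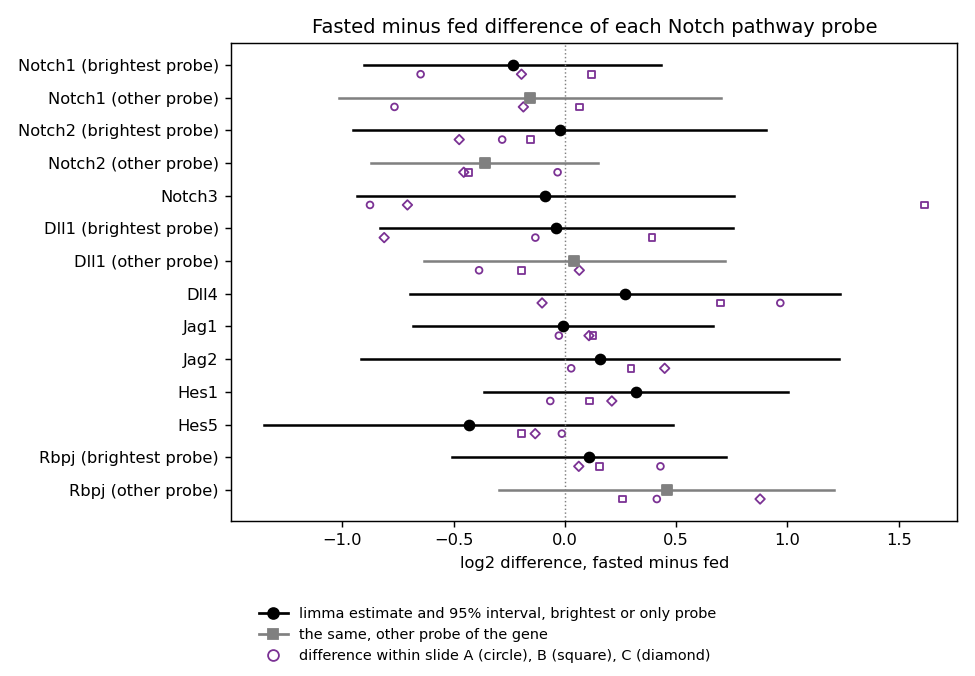
Fasted minus fed difference on the log2 scale for each of the 14 probes, with the limma estimate and its 95% interval in black for the brightest or only probe and in grey for the other probe, and open purple marks for the difference within slides A (circle), B (square) and C (diamond). All 14 intervals cross 0, and the within-slide marks of Notch3 lie farthest apart, from -0.88 to 1.62.

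The remaining Notch machinery was read from lists of 90 further genes, of which 88 were on the array and 78 were tested. Of these 78 genes 0 passed the adjusted threshold with limma and 3 had an unadjusted p under 0.05, beside 5.95% of all genes. Groups did not overlap for 4 of the 78, beside 4.97% of all genes. Differences were above 0 for 42 and below 0 for 36, with a median of 0.02, beside -0.06 over all genes. The receptors' proteases include Adam10, which makes the first cut, and the gamma-secretase subunit Ncstn, which makes part of the enzyme for the second. All 8 tested genes of this list had a difference above 0, with a median of 0.19 and 0 at an unadjusted p under 0.05, Adam10 at 0.34 (SE 0.31) and Ncstn at 0.40 (SE 0.29). Adam10 was at 0.06 without fasted 3. Without fasted 3 the count above 0 was 6 of 8 and without both fasted 3 and fed 4 it was 4 of 8. The median of the 8 genes then moved to 0.03 and -0.01. Without fed 4 alone 7 of 8 were above 0 with a median of 0.12, and with slide as a block 7 of 8 with 0.11. With each array's share of bright probes in the model 8 of 8 were above 0 with 0.34. Over all genes 44.5% were above 0 in the main setting.

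Other receptors and ligands were Notch4, at 0.20 (SE 0.38), and Dll3, at -0.87 (SE 0.57), well above background on 6 and 5 of 8 arrays. Ligand endocytosis genes split 4 above and 4 below 0, but 1 of 8 was above 0 without fasted 3, without fed 4 and with slide as a block, with medians of -0.20, -0.12 and -0.17. Glycosylation genes, which tune ligand choice, split 4 and 4, and 3 of 8 were above 0 without fasted 3. The fringe enzyme Rfng stood at 0.30 (SE 0.18). Among 13 turnover genes and inhibitors 9 were above 0, and 7 without fasted 3, with the E3 ligase Dtx1 at 0.67 (SE 0.30, unadjusted p = 0.056, adjusted p = 0.788 by limma) and its groups not overlapping. Nrarp, a feedback inhibitor that Notch itself switches on, stood at 0.64 (SE 0.36) and at 0.31 without fasted 3. Coactivator genes had 6 of 9 above 0, but 2 of 9 without fasted 3 and 1 of 9 without both fasted 3 and fed 4. They had 5 of 9 above 0 with slide as a block and 7 of 9 with the share of bright probes in the model. Maml3, a Mastermind protein that clamps the receptor to RBPJ, stood at -1.29 ± 0.24 (SD, n = 4) fasted and -0.56 ± 0.18 (SD, n = 4) fed, without overlap. The difference was -0.73 (SE 0.25, unadjusted p = 0.017, adjusted p = 0.788 by limma). The mean of all Maml3 probes gave 0.12 instead. Corepressor genes had 8 of 15 above 0, and 7 of 15 without fasted 3. Spen, a cofactor of RBPJ repression, stood at 0.46 (SE 0.27), and at 0.22 without fasted 3.

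Further Hes-like factors and the secretory factors held down by Notch lie at the output end of the pathway. In the Hes and Hey list 2 of 7 tested genes were above 0, and the median, members included, was -0.43, with Hes7 at -0.54 (SE 0.29) and Hes6 at 0.36 (SE 0.29). Without fasted 3 the direction of this list turned, with 4 of 7 above 0 and a median of 0.02. Without both fasted 3 and fed 4 it was 5 of 7 with 0.09. With slide as a block it was 3 of 7 with -0.11. With each array's share of bright probes in the model it was 2 of 7 with -0.72. In that model 4 of the 7 had an unadjusted p under 0.05 with limma, as had 5562 of 19528 genes. Hes3, Hey2 and Heyl were well above background on no array. Of 11 secretory factors 9 were below 0, with a median of -0.40. Beside 5.95% of all genes, 2 of the 11 had an unadjusted p under 0.05. Those were Neurog3, the enteroendocrine factor, at -0.64 (SE 0.25, unadjusted p = 0.031), and Gfi1, a factor of goblet and Paneth cells, at 0.83 (SE 0.35, unadjusted p = 0.045), both with a limma adjusted p of 0.788. Atoh1, the factor that HES1 represses, stood at 1.34, 0.51, 2.35 and 1.15 on fasted arrays 1 to 4 and at 1.75, 1.95, 1.58 and 0.94 on fed arrays 1 to 4. It overlapped between the groups and differed by -0.22 (SE 0.41, limma adjusted p = 0.894). For Atoh1 this ran from -0.76 without both fasted 3 and fed 4 to 0.09 without fasted 2.

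Markers of the cell types that send or receive Notch signals were read on the same arrays. Crypt base stem cell markers had 6 of 13 above 0 and a median of -0.05, and 4 of 13 with -0.34 without fasted 3. With each array's share of bright probes in the model they had 9 of 13 with 0.11. Olfm4 was among them at -1.11 (SE 0.24, unadjusted p = 0.0017, adjusted p = 0.788 by limma). Its groups did not overlap, as for 4.97% of all genes. In all 24 alternatives Olfm4 kept its sign and an unadjusted p under 0.05 by limma, with a smallest adjusted p of 0.0626. Among the 6 stem cell markers above 0, Cdca7 stood at 0.63 (SE 0.29) and Ascl2 at 0.59 (SE 0.46). Paneth cell markers, of cells that present Dll4 to stem cells, had 9 of 10 below 0 with a median of -0.46. An unadjusted p under 0.05 was found for 1 of these 10, beside 5.95% of all genes. Goblet cell markers had 9 of 11 below 0 with a median of -0.20. Enteroendocrine markers had 8 of 11 above 0 with 0.24, but 4 of 11 with -0.04 without fasted 3 and 4 of 11 with -0.20 without both fasted 3 and fed 4. Tuft cell markers had 8 of 10 above 0 with 0.42, but 5 of 10 with 0.03 when slide was a block. Enterocyte markers, of the absorptive cells above the crypt base, had 20 of 21 above 0 with a median of 1.10. Of these 21, 15 had an unadjusted p under 0.05, beside 5.95% of all genes, while 0 passed the adjusted threshold with limma. The enterocyte markers summed to 107.28 to 223.98 times the 75th percentile signal on fasted arrays and to 49.71 to 93.64 on fed arrays. The summed levels did not overlap between the groups, and their part in the Notch values was not tested. Leukocyte markers had 4 of 10 and enteric neuron and glia markers 3 of 7 above 0, with medians of -0.18 and -0.04.

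**Figure D3:**
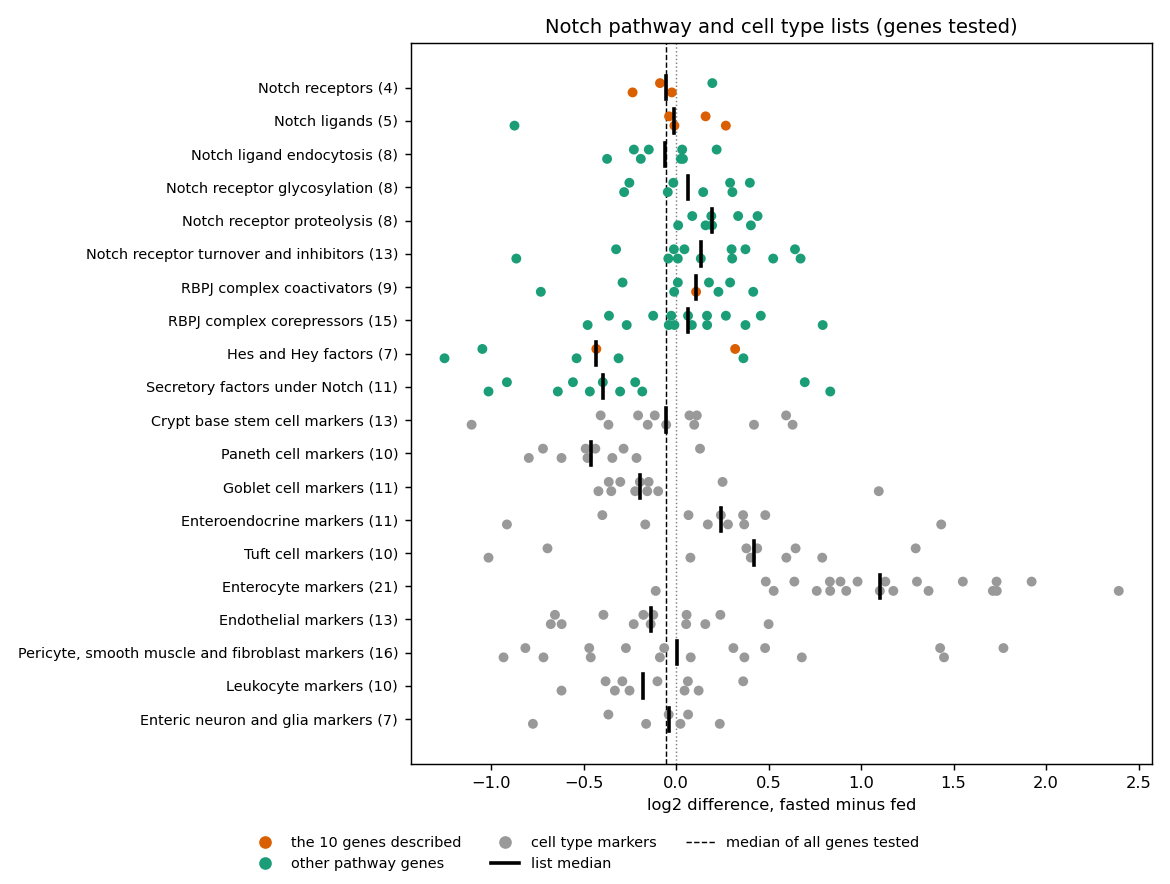
Fasted minus fed difference on the log2 scale for each tested gene of the pathway and cell type lists, 1 point per gene, orange for the 10 Notch genes, green for other pathway genes and grey for cell type markers, with a black bar at each list's median and the number tested in brackets. The orange points lie between -0.43 and 0.32, and the enterocyte list lies to the right with a median of 1.10.

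The labels also allow the sexes to be compared, male minus female, in the same model. Of the members 0 of 10 passed the adjusted threshold with limma, as did 0% of all genes, and 1 of 10 had an unadjusted p under 0.05, beside 2.26% of genes. That member was Notch3, with a mean of 0.88 on the 4 arrays labelled male and -0.28 on the 4 labelled female, a difference of 1.16 (SE 0.37, unadjusted p = 0.014, adjusted p = 1.00 by limma). The sets overlapped only where fasted 1, labelled male, read 0.24 and fasted 3, labelled female, read 0.26. Fed 4 read -0.29 and counted there as female. Its Xist and Eif2s3y go against that label, so the narrow overlap rests in part on it. Markers of pericytes, smooth muscle and fibroblasts summed to 50.74 to 124.06 on arrays labelled male and to 30.93 to 92.21 on those labelled female, and their part in the Notch3 values was not tested.

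Jag1 was the 1 member of 10 whose labelled sexes did not overlap, beside 1.5% of all genes. Its mean was -1.44 on arrays labelled male and -2.10 on those labelled female, a difference of 0.67 (SE 0.30, unadjusted p = 0.055, adjusted p = 1.00 by limma). The 4 arrays labelled male read -1.25, -1.22, -1.63 and -1.66, and the highest labelled female read -1.76. The lowest of all 8, at -2.43, was fed 4, whose Xist and Eif2s3y go against its label, so the lack of overlap rests in part on that label. Slide A held only arrays labelled male and slide C only arrays labelled female, so between those slides the label and the slide cannot be told apart. Slide B held both labels, but its male array was fasted and its female array fed, so its differences of 0.13 for Jag1 and 1.62 for Notch3 are those already given for feeding, and sex and feeding cannot be told apart there. Without fed 4 the difference was 0.53 for Jag1 and 1.14 for Notch3. Jag2 differed by 0.76 (SE 0.47), Notch1 by 0.41 (SE 0.29) and Rbpj by 0.39 (SE 0.27), while Notch2, Dll1, Dll4, Hes1 and Hes5 lay between -0.17 and 0.12.

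**Figure D4:**
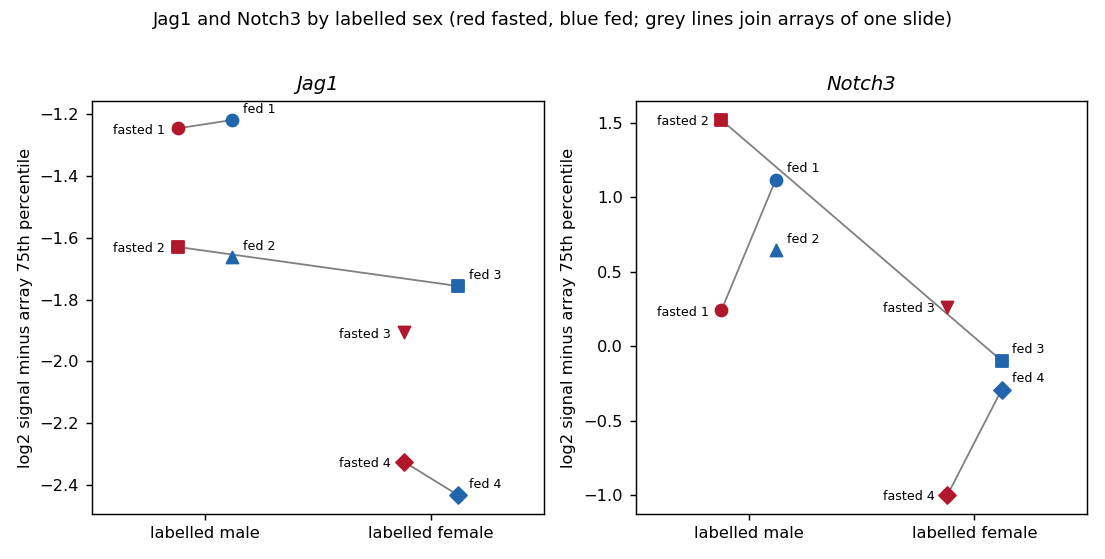
Levels of Jag1 and Notch3 on each array as log2 signal minus the array's 75th percentile, by labelled sex, red for fasted and blue for fed, with grey lines joining arrays of one slide. All 4 Jag1 points labelled male lie above all 4 labelled female, while for Notch3 fasted 1 at 0.24 lies just below fasted 3 at 0.26.

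Whether the feeding difference itself differed between labelled sexes was tested as a feeding by sex term. By the labels it rests on 2 mice in each of 4 cells. Fed 4 is 1 of the 2 fed mice labelled female, and its Xist and Eif2s3y go against that label. With limma 0 of 10 members passed the adjusted threshold, as did 0% of all genes, and 0 of 10 had an unadjusted p under 0.05, beside 3.21% of genes. The term was largest in size for Jag2, at -1.35 (SE 0.88), and for Dll4, at 1.08 (SE 0.82), and the smallest adjusted p among members was 0.758. Without fasted 4 the term passed for Notch2, at -1.72 with an adjusted p of 0.0385, and for Hes5, at 1.82 with an adjusted p of 0.0463. Then 2224 of all genes passed as well, and fasted 3, the array least like the rest, was the only fasted array labelled female and was assumed to vary like the others.

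The genes whose levels ran most nearly parallel to Hes1 and Notch1 over the 8 arrays were taken from 19348 genes with a value on every array, by Pearson correlation. For Hes1 they were Baz2a at 0.978, Pigyl at 0.978, Cald1 at 0.974, Mcrs1 at 0.960 and Ilk at 0.959. For Notch1 they were Eed at 0.977, Dbi at 0.970, Sbk1 at 0.968, Mxra7 at 0.966 and Mptx1 at 0.933. No member of the 10 was among them. The 8 points share slides, labelled sexes and feeding groups, and with so few points and so many genes such values describe these arrays only.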

How the data were processed

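Cy5-labelled material from the 8 mice was hybridised to Agilent Mouse v2 4x44K arrays, 1 array each. Scanner files as deposited hold linear spot intensities, which the authors extracted and background-subtracted using Agilent Feature Extraction 11.5.1.1, as the submitters' processing notes and the headers state. A matrix that the authors deposited gives log2 values of unknown scaling and centring (column medians 7.73 to 8.33) and served as an alternative.

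Control and outlier spots were dropped, spots of one probe averaged, and 27649 of 39429 probes named through RefSeq accessions (GRCm38.p6, names only), the others by the files. A probe was kept if well above background on 4 or more of the 8 arrays, and the brightest kept probe represented its gene. Tests used limma 3.58.1 (eBayes with a mean trend, R 4.3.3), modelling group and labelled sex, at a Benjamini-Hochberg threshold of 0.05. The number of arrays limits the precision.

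Replicate numbers did not pair the samples: deviations of same-numbered arrays correlated at 0.37, -0.47, -0.45 and 0.61. Fasted and fed arrays of one slide did deviate together, at 0.37, 0.54 and 0.61 on slides A, B and C. Pairs on different slides had a median of -0.37, but their highest, 0.50, lay above slide A. The arrays numbered 1 and those numbered 4 are also the pairs of slides A and C. The main model has no slide term, and slide as a block was an alternative. Members, gene lists, the alternatives and the rule for named genes were chosen with earlier results of these data known. The rule takes all members, up to 3 further genes per pathway list and 2 per marker list by smallest p, 10 set markers, and the 5 genes most like each of Hes1 and Notch1.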

Additional observations from a re-analysis of the deposited data

How the results depend on the processing

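The count of genes that differed between fasted and fed crypts was 0 under the main setting and all 24 alternatives: other background correction, scaling, filters and probe rules, the authors' matrix, other model terms and variance models, and leaving out arrays. The smallest adjusted p by limma was 0.788 in the main setting and 0.0626 once each array's share of bright probes entered the model. With a replicate block instead of sex 0 genes passed, 1114 had an unadjusted p under 0.05 and no other call changed. For labelled sex the count ran from 0 to 5 when 1 array was left out, with 5 without fasted 3, and for feeding by labelled sex from 0 to 2224, with 2224 without fasted 4 and 1 without fed 2. The sex term could not be fitted with no sex term, the slide block or the replicate block. Of the members' fasted minus fed differences, Hes1 kept its sign in all 24 alternatives (0.09 to 0.51), whereas Jag1 changed it in 9, Dll1 in 8, Notch2 in 7, Notch3, Jag2 and Rbpj in 3 each, Hes5 in 2, and Notch1 and Dll4 in 1 each. Hes5 ran from -0.73 to 0.06, Notch2 from -0.53 to 0.30 and Dll4 from -0.003 to 0.83. For members and other named genes together 118 of 1924 values changed sign and 2 were newly called, both for the feeding by sex term without fasted 4. All 14 member probes were well above background on every array. Slide and array quality bear on the precision: 2555 genes had an unadjusted p under 0.05 with slide as a block (smallest adjusted p 0.114) and 5562 with the share of bright probes in the model, against 1161 in the main setting.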
